A study of Homo sapiens with 54 samples.

Results

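Messenger RNA recovered on Argonaute was compared between human H4 cells transfected with a mimic of the microRNA miR-16 and H4 cells transfected with a negative control RNA. The members are the 6 arrays whose titles name the miR-16 or the negative control immunoprecipitate (IP), 3 replicates of each, of 54 arrays in the series. H4 is an established line that the labels call glioneuronal, so every group is a model of this line alone. All cells received a small RNA and were harvested 48 hours later, and no untransfected cells were used here. RNA was taken with the anti-Argonaute monoclonal antibody 2A8 (the IP) or as total RNA of the lysate, and was hybridised to Affymetrix Human Gene 1.0 ST arrays. The negative control is a commercial RNA from Ambion, described in the design text as non-physiological. Set beside it were the lysates of the same 2 transfections and the IPs of miR-195, miR-103 and miR-107, of miR-320, labelled a control microRNA, and of miR-15b*, titled miR-15b and labelled an antisense control. The IPs of 2 altered forms of miR-107, here mut1 and mut2, enter only the estimate of the spread and the displays of levels. The 3 replicates of a group are biological replicates, per the design text.

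Argonaute proteins carry a microRNA as a guide, and the seed of the guide, its bases 2 to 8, pairs with sites that mostly lie in the untranslated tails of messages. Bound messages tend to lose their poly(A) tail, their cap and then the message itself, so a target can be rich in the IP while its level in the lysate falls. The miR-16 family is known for holding back the cell cycle through messages such as those of cyclins, CHEK1 and WEE1, and for repressing BCL2.

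The mature human sequences are shown because the comparisons below are between molecules that share part of their 5′ end. They are read 5′ to 3′ from RefSeq (GRCh38.p14), with the seed in capitals. The sequences of the transfected mimics themselves are not stated in the labels.
hsa-miR-16-5p: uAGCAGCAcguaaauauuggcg
hsa-miR-195-5p: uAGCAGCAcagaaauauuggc
hsa-miR-103a-3p: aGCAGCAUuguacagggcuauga
hsa-miR-107: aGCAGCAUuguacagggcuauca
hsa-miR-15b-3p: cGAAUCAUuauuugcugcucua
miR-16 and miR-195 share their seed, their first 9 bases and 19 of 21 aligned positions. miR-103a and miR-107 share another seed and their first 21 bases. The 7 bases of the miR-16 seed are bases 1 to 7 of miR-103a and miR-107, so the families overlap with an offset of 1 base. The strand of the miR-15b hairpin called miR-15b* (now miR-15b-3p) shares no seed with either and no stretch with miR-16 longer than 4 bases. The mature miR-16 lies at chr13:50049027-50049048 on the minus strand (gene MIR16-1) and at chr3:160404754-160404775 on the plus strand (MIR16-2). The array did not show the transfected molecule: the probe set of MIR16-1 read 2.16, 1.82 and 1.88 in the miR-16 IPs and 1.87, 2.10 and 1.85 in the control IPs, and that of MIR16-2 read 1.70 to 1.74 and 1.44 to 1.79. Both groups overlap at these probe sets, which stand at the bottom of the scale, so the labels could not be checked against the transfected RNA.

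Values are those of robust multi-array averaging (RMA), read here as log2. They average 3.61 to 3.65 per IP array and 7.11 to 7.17 per lysate array, so the fractions were scaled apart and no IP level is compared with a lysate level. The standard deviation over genes was 1.66, 1.72 and 1.88 in the 3 miR-16 IPs and 1.86, 1.84 and 1.99 in the control IPs, a narrower spread in the first 2 miR-16 IPs than in any control IP. Of the H4 identity markers, vimentin (VIM) stood at 12.5 in the control lysate, above 98.8% of genes, while 6 of 11 neuronal, 5 of 9 astroglial, 4 of 5 oligodendroglial, 1 of 6 haematopoietic and 0 of 6 endothelial and epithelial markers on the array passed the filter on low values. None of these markers was called changed with miR-16 in the IP. GFAP, the defining astrocyte filament, read 6.51 in the control lysate.

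Over the 11050 genes tested, the median change in the IP (miR-16 minus control) was -0.08 on the log2 scale and depended on the level. Ranked by mean over the IP arrays into 5 groups of 2210 genes, it was -0.40 in the highest group and 0.01 in the middle one. Cyclic loess, which removes a trend with level between arrays, brought the highest group to -0.01. In the lysate that group stood at 0.09. Falls of highly expressed genes in the IP therefore tended to be smaller after loess, and their rises larger. More were called all the same: 55 falls and 6 rises in the highest group as deposited, and 76 and 44 after loess.

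**Figure D1:**
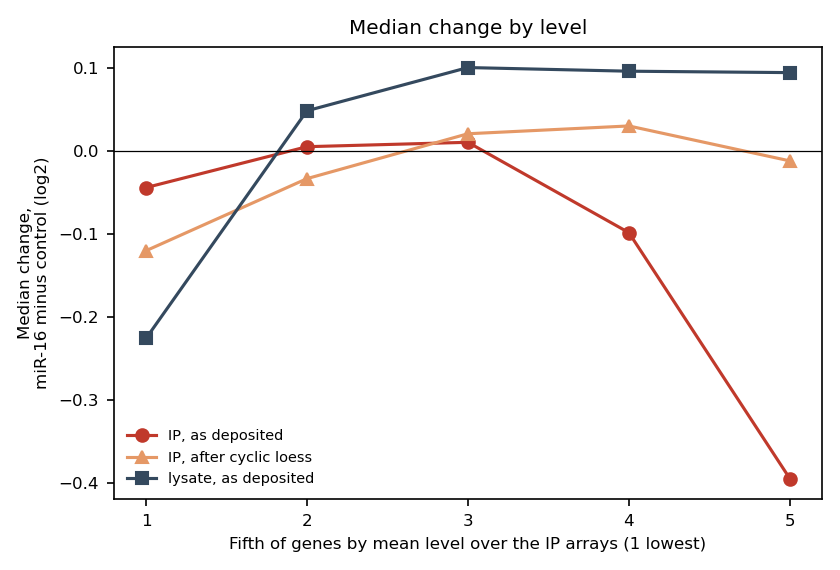
Median log2 change with miR-16 (miR-16 minus control) in 5 equal groups of 2210 genes ranked by mean level over the 27 IP arrays, for the IP as deposited, the IP after cyclic loess and the lysate. The IP line as deposited falls to -0.40 in the highest group, and the line after loess ends at -0.01.

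With miR-16 far fewer genes were called in the IP than in the lysate, and most of those called in the IP went down. The IP changes were less precise, with a median SE of 0.27 beside 0.16 in the lysate. At an unadjusted p under 0.05 (limma) the counts were 1407 and 3188, so the calls do not show how many messages moved. In the IP 15 genes were called higher and 124 lower (limma, adjusted p under 0.05), which is 0.136% and 1.12% of the genes tested and 1.26% together. The lysate gave 1056 higher and 823 lower, 17.0% of genes (1169 without control lysate replicate 2 and 1248 without control lysate replicate 3). All 139 genes called in the IP had groups that did not overlap, as had 20.4% of all genes tested. With the replicate number as a block, as the pairing of the replicates allows, the calls were 50 higher (0.452%) and 536 lower (4.85%) and included all 139. After cyclic loess they were 55 higher (0.498%) and 202 lower (1.83%) and included 123 of the 139, and after quantile normalization 49 higher and 139 lower, so the share of rises moved from 10.8% to 21.4% and 26.1%. Leaving out 1 array cut the count to between 19 (without control replicate 3) and 124 (without miR-16 replicate 3). Without miR-16 replicate 1, miR-16 replicate 2 or control replicate 1 it was 50, 33 and 66. The groups of all 139 genes do not overlap, so leaving out 1 array could not change a sign, and only the calls are informative. The call held in all 6 fits for 1 rise and 18 falls.

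In the lysate, 10 of the 15 IP rises were also called higher and 0 lower, beside 9.56% of all genes called higher. Of the 124 IP falls, 51 were called lower in the lysate (41.1%, beside 7.45% of all genes), 3 higher, and 70 neither. The IP and lysate arrays are separate hybridisations. Replicate 2 of the miR-16 lysate correlated with its group at a mean of 0.908, the lowest of the 6 lysates compared. Without it the counts were 10 of the rises and 49 of the falls, with TBC1D2 leaving the rises (adjusted p = 0.142) and ITGA2 entering them (0.0104).

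**Figure D2:**
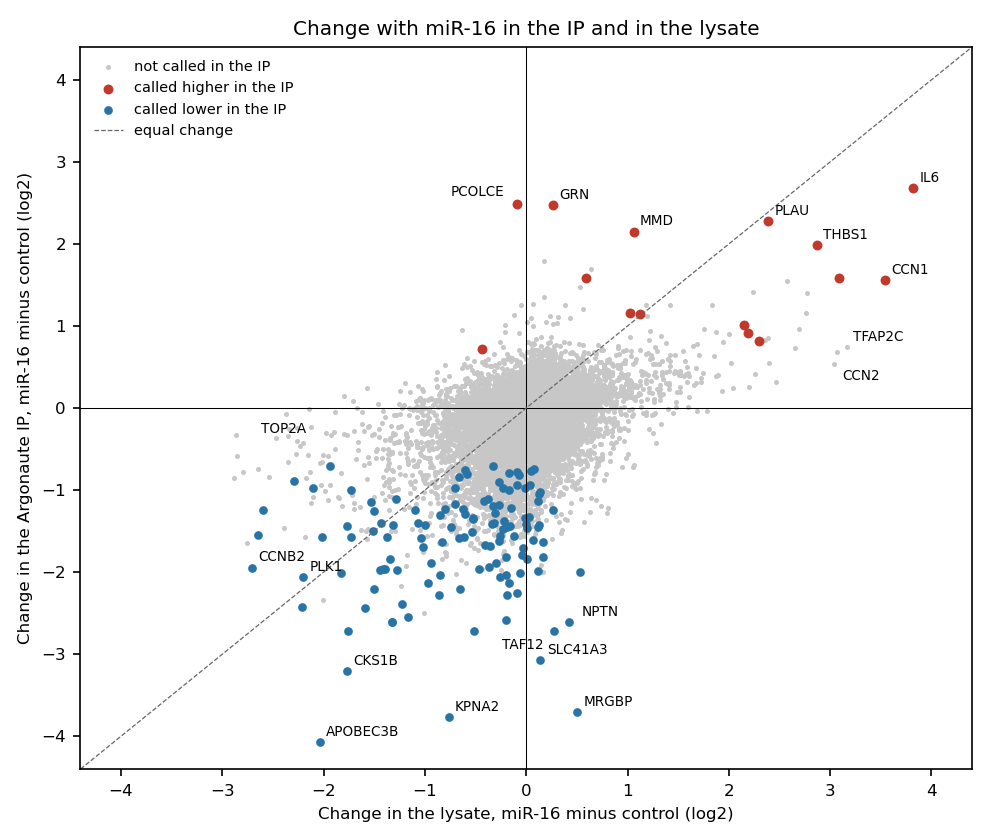
Change with miR-16 in the Argonaute IP (vertical, log2) against the change in the lysate (horizontal, log2) for the 11050 genes tested, with the 15 rises and 124 falls of the IP in colour and a dashed line of equal change. PCOLCE and GRN lie high near a lysate change of 0, MRGBP, SLC41A3, TAF12 and NPTN lie low near 0, and IL6, PLAU, THBS1 and CCN1 are high in both.

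The rises without a called lysate change were led by PCOLCE and GRN. PCOLCE encodes a secreted enhancer of procollagen processing. It read 11.98, 11.28 and 12.16 in the miR-16 IPs and 9.22, 9.22 and 9.52 in the control IPs, so every miR-16 array was above every control array. The change was 2.48 ± 0.37 (SE, 5.59-fold, adjusted p = 0.00129), and 3.31 after loess. Its message in the lysate was 13.15 ± 0.14 with miR-16 and 13.24 ± 0.12 with the control (SD, n = 3), a change of -0.09 (adjusted p = 0.662). PCOLCE was the only rise whose call held without any 1 of the 6 arrays, with a highest adjusted p of 0.00869.

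GRN encodes progranulin, a secreted growth factor of neurons and glia, and stood on the list of known miR-103/107 targets. Its values were 9.82, 10.02 and 10.48 with miR-16 and 7.46, 7.58 and 7.85 with the control, again without overlap. The change was 2.48 ± 0.48 (5.57-fold, adjusted p = 0.00898) and 3.24 after loess. The lysate moved by 0.26 (adjusted p = 0.366). The call was lost without control replicate 3 (adjusted p = 0.0543). The test of the difference between fractions passed for both genes, at 2.57 ± 0.40 for PCOLCE (adjusted p = 0.000103) and 2.22 ± 0.53 for GRN (adjusted p = 0.0193, and 0.0539 without control IP replicate 1).

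Another 3 rises had no called change in the lysate. SNORD12C, a box C/D small nucleolar RNA, read 5.15, 4.50 and 6.31 against 4.26, 3.17 and 3.77 (1.59 ± 0.38, adjusted p = 0.037). ITSN1, a scaffold protein of endocytosis, read 3.60 to 4.01 against 3.09 to 3.18 (0.72 ± 0.18, adjusted p = 0.0455), with a lysate change of -0.44 (adjusted p = 0.249). Both sit low on the IP scale. The integrin subunit gene ITGA2 changed by 1.15 ± 0.27 (adjusted p = 0.0335) and by 1.02 in the lysate (adjusted p = 0.0989). ITGA2 stood higher still in the miR-320 IP, 3.04 above the control, so that against the mean of 3 control molecules its miR-16 change was -0.019 (adjusted p = 0.975).

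Of the 10 rises shared with the lysate, the cytokine gene IL6 was the largest IP rise, at 6.94, 8.62 and 7.94 with miR-16 and 5.97, 4.89 and 4.59 with the control (2.68 ± 0.63, adjusted p = 0.0365). Its groups are separated, but by less than 1 unit between the nearest arrays. PLAU, the urokinase that activates plasminogen, read 6.87, 8.19 and 8.69 against 5.40, 5.37 and 6.13 (2.28 ± 0.50, adjusted p = 0.0226). THBS1, the matricellular protein thrombospondin-1, spread widely with miR-16 at 4.03, 6.02 and 6.57, against a narrow 3.64, 3.59 and 3.44 (1.98 ± 0.48, adjusted p = 0.0424). The lowest miR-16 array of THBS1 lies only just above the controls. In the lysate these genes rose by 3.82 (IL6), 2.39 (PLAU) and 2.87 (THBS1).

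CCN1, another matricellular protein, rose by 1.56 ± 0.30 in the IP (adjusted p = 0.00812) and 3.54 ± 0.37 in the lysate, and the change was smaller in the IP by the test of the difference (-1.98 ± 0.48, adjusted p = 0.0222). The same test passed with the same sign for the matrix protease gene ADAMTS14 (IP 1.58, lysate 3.09), for TMEM158 (0.92 and 2.19) and for the phosphatase gene PTPRE (0.82 and 2.30). With each of the 12 arrays left out in turn, this call of the difference was lost in 9 fits for ADAMTS14, 5 for TMEM158, 4 for CCN1 and 0 for PTPRE, with highest adjusted p-values of 0.175, 0.135, 0.105 and 0.0107. All of these read under 8 in the IP, and the scales of the fractions differ, so a difference between their changes may include a difference in scale, which was not tested. It did not pass for TBC1D2 (1.14 and 1.12), GPNMB (1.01 and 2.15) or MMD. MMD, a membrane protein of monocyte-to-macrophage differentiation, read 9.26, 8.15 and 8.87 against 6.94, 6.20 and 6.70 in the IP (2.15 ± 0.50, adjusted p = 0.0328) and rose by 1.06 ± 0.15 in the lysate.

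Beside PCOLCE and GRN, the calls of CCN1 and TBC1D2 were lost without control replicate 3 or miR-16 replicate 2, and that of PTPRE without control replicate 1 or 3. The other 10 rises lost theirs without at least 3 of the arrays, control replicate 3 among them. MMD, TMEM158 and ITSN1 lost it without any 1 of the 6. With the replicate block all 15 kept their call.

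**Figure D3:**
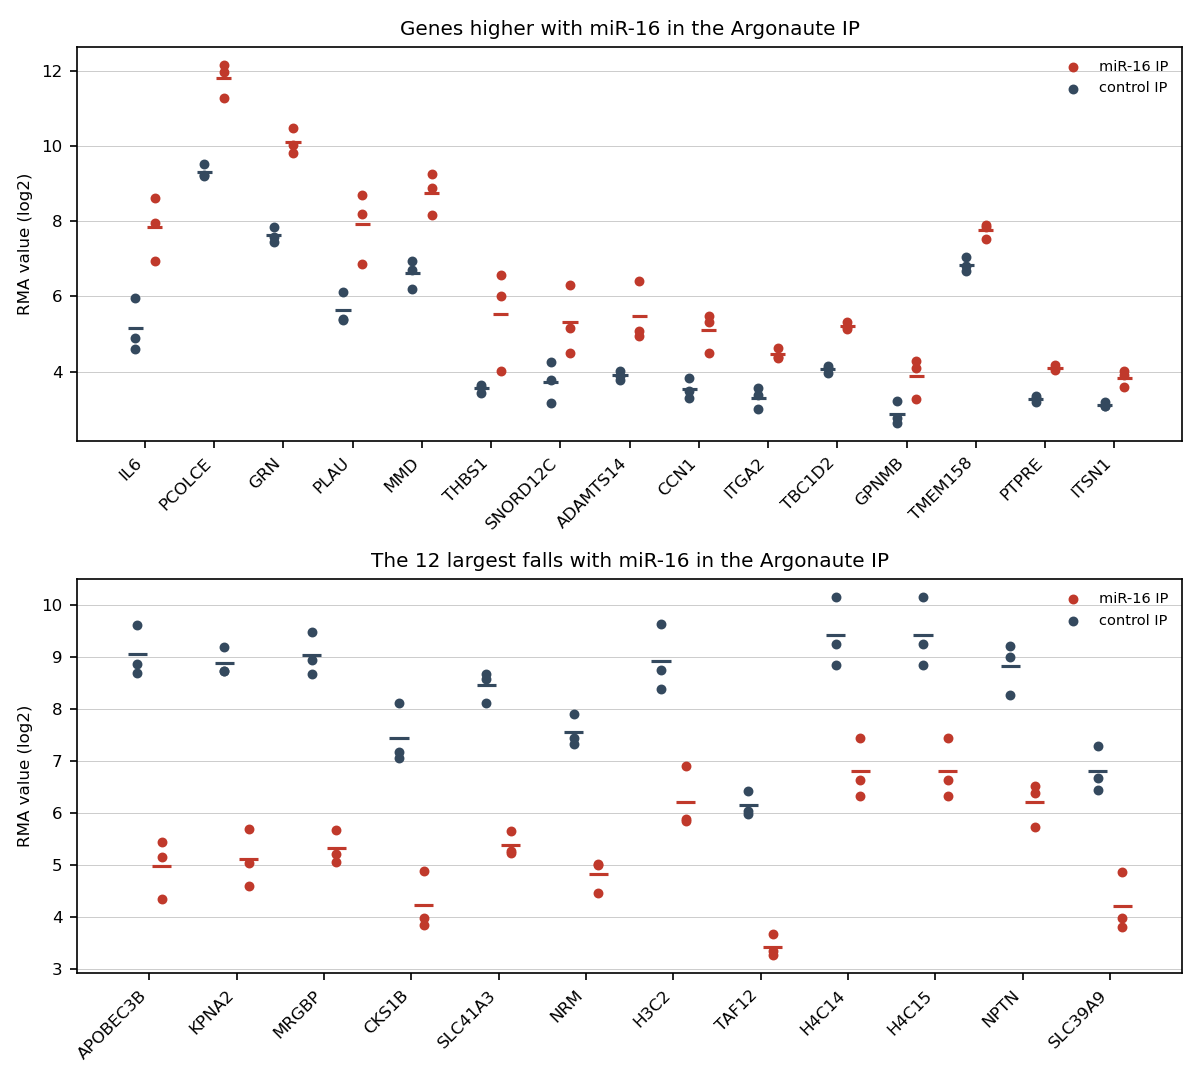
RMA values (log2) of each of the 3 miR-16 IP and 3 control IP arrays as points, with the group mean as a bar, for the 15 rises (upper panel) and the 12 largest falls (lower panel). No gene shown has overlapping groups, and PCOLCE and GRN are the rises furthest up the scale.

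Some of the largest falls are set out here as 2 kinds, by their contrast with miR-320 and miR-15b*. The kinds overlap in other traits, and not every large fall is placed in one. MRGBP, SLC41A3, TAF12 and NPTN fell with miR-16 in the IP while their lysate message did not fall. MRGBP, a subunit of the NuA4 histone acetyltransferase complex, read 5.06, 5.22 and 5.68 with miR-16 against 8.94, 8.67 and 9.48 with the control (-3.71 ± 0.41, adjusted p = 3.23e-05). In the lysate it rose by 0.50 (adjusted p = 0.000438). The magnesium transporter gene SLC41A3 read 5.28, 5.23 and 5.65 against 8.12, 8.67 and 8.58 (-3.07 ± 0.35, adjusted p = 3.91e-05), with 0.14 in the lysate (adjusted p = 0.534).

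TAF12, a subunit of the general transcription factor TFIID, had the smallest adjusted p of the named falls. It read 3.36, 3.28 and 3.68 against 6.04, 5.99 and 6.42 (-2.71 ± 0.21, adjusted p = 8.01e-08). NPTN, the cell adhesion protein neuroplastin, read 5.73, 6.39 and 6.51 against 8.27 to 9.21 (-2.61 ± 0.41, adjusted p = 0.00155). The lysate change was 0.28 for TAF12 (adjusted p = 0.136) and 0.42 for NPTN (adjusted p = 0.0115). These 4 genes kept their call without any 1 of the 6 arrays, and the difference between fractions passed for each, from -2.99 (TAF12) to -4.21 (MRGBP).

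These 4 messages were also low in the IPs of the other molecules. MRGBP averaged 5.13 (miR-107) to 6.25 (mut1) in the IPs of the other 7 molecules, SLC41A3 4.81 (miR-103) to 5.78 (mut1), TAF12 2.96 (miR-107) to 3.72 (miR-320) and NPTN 5.97 (miR-107) to 6.95 (miR-320). The control IP stood above all of these means. In the contrast of miR-16 with miR-320 and miR-15b*, which does not use the control arrays, they differed by -0.55, -0.06, -0.10 and -0.51 (adjusted p = 0.512, 0.955, 0.846 and 0.544). The 95% interval of that contrast was -0.48 to 0.27 for TAF12 and -1.28 to 0.18 for MRGBP. Whether the level in the control IP belongs to the control RNA was not tested.

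The other kind fell with miR-16 in the IP and was also lower than the mean of miR-320 and miR-15b*. APOBEC3B, a cytidine deaminase, read 5.45, 4.35 and 5.16 with miR-16 and 8.86, 8.69 and 9.62 with the control, more than 3 units apart at the nearest arrays. It was the largest fall, at -4.07 ± 0.64 (16.8-fold, adjusted p = 0.00155). KPNA2, the importin that carries proteins into the nucleus, read 5.05, 4.60 and 5.70 against 8.72, 8.72 and 9.20 (-3.76 ± 0.58, adjusted p = 0.00146). CKS1B, a small subunit of cyclin-dependent kinases, read 3.98, 3.85 and 4.88 against 7.05, 7.17 and 8.11 (-3.21 ± 0.57, adjusted p = 0.00573).

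All 3 also fell in the lysate, by 2.04 for APOBEC3B, 0.77 for KPNA2 and 1.77 for CKS1B. For KPNA2 the fall in the IP was larger by the test of the difference (-3.00 ± 0.62, adjusted p = 0.00381). Against miR-320 and miR-15b* the differences in the IP were -2.26 ± 0.55 for APOBEC3B, -2.17 ± 0.50 for KPNA2 and -2.32 for CKS1B (adjusted p = 0.031, 0.0211 and 0.0136), calls lost without 6, 3 and 2 of the 9 arrays, with the highest adjusted p without miR-16 replicate 2 for each. APOBEC3B, too, was below the control in the IPs of all 7 other molecules, by changes of -1.46 (mut1) to -4.92 (miR-103). The range was -0.39 to -3.91 for KPNA2 and 0.23 to -3.03 for CKS1B. KPNA2 and CKS1B were not evenly high in the compared pair. KPNA2 averaged 8.49 with miR-320 and 6.08 with miR-15b*. CKS1B averaged 7.67 ± 0.39 with miR-320 and 5.45 ± 1.66 with miR-15b*, whose lowest array, 4.10, lay within the miR-16 range of 3.85 to 4.88. APOBEC3B and KPNA2 kept their fall against the control RNA without any 1 array, while CKS1B lost it without control replicate 3 (adjusted p = 0.0649).

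Of the remaining large falls, NRM, the nuclear envelope protein nurim, changed by -2.72 ± 0.49 (adjusted p = 0.00573, and 0.059 without control replicate 3). SLC39A9, a zinc transporter, changed by -2.59 ± 0.56 (adjusted p = 0.0226). SLC39A9 lost its call without either of miR-16 replicates 1 and 2 or either of control replicates 1 and 3. For both, the lysate change was not called (-0.52 and -0.20) and the difference between fractions was (-2.20 and -2.39), a call lost in 5 and 7 of 12 fits with 1 array left out. UBE2V1, a ubiquitin-conjugating enzyme variant, fell by 2.00 on the log2 scale in the IP (adjusted p = 0.0442), a call that held only without miR-16 replicate 3, and rose by 0.53 in the lysate.

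**Figure D4:**
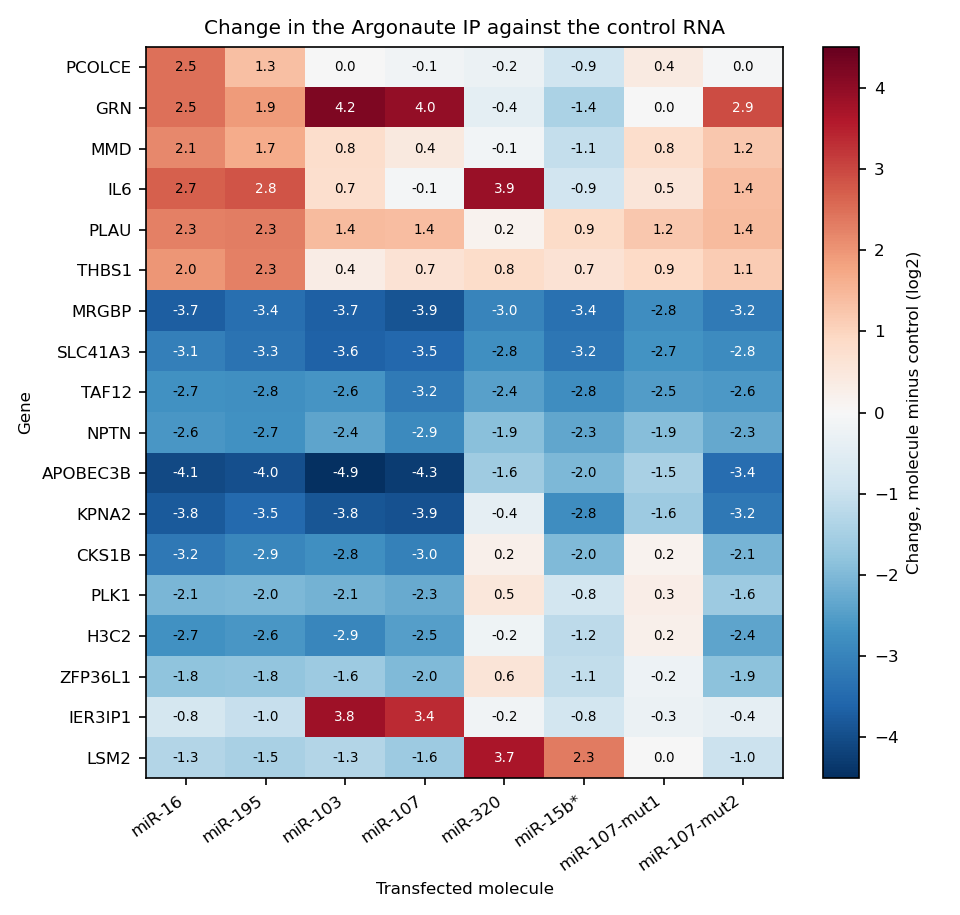
Mean change in the Argonaute IP against the control RNA (log2, colour and number) for 18 named genes in rows and the 8 transfected molecules in columns. All columns share the same 3 control arrays. MRGBP, SLC41A3, TAF12 and NPTN are low in every column, PCOLCE is high with miR-16 and miR-195, and IER3IP1 is high with miR-103 and miR-107.

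Replication-dependent histones, whose messages end in a stem-loop in place of a poly(A) tail, had the most falls of any list. Of 39 tested, 14 fell (35.9%, beside 1.12% of all genes) and 0 rose in the IP, and 38 of the 39 were below 0. With the replicate block 22 fell and after loess 15, beside 4.85% and 1.83% of all genes. The median change of the histones was -1.30, beside -0.08 for all genes tested, and -0.89 after loess. H3C2 read 5.89, 5.84 and 6.90 against 8.38, 8.76 and 9.64 (-2.71 ± 0.57, adjusted p = 0.0175). H2BC9 read 6.98, 7.67 and 7.44 against 8.69, 9.13 and 9.37 (-1.70 ± 0.25, adjusted p = 0.00103), and it and H3C8 (-2.01) were the 2 that kept their call without any 1 array. With 1 array left out, between 2 and 10 histones were called, and 2 without control replicate 3.

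Histone genes are near copies of each other, so probes can be shared: the values of H4C14 and H4C15 were identical (both -2.61). They are counted as 2 genes but are 1 measurement. H1-4, the histone furthest up the scale, changed by -1.30 (adjusted p = 0.0195) as deposited and by -0.33 after loess (adjusted p = 0.672). In the lysate 34 of the 39 fell (87.2%, beside 7.45% of all genes), with a median of -0.95. In bulk RNA, fewer cells in S phase and less histone RNA per cell cannot be told apart.

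In each of the 3 cell cycle lists the count of falls was higher in the lysate than in the IP. Of all genes tested, 7.45% fell in the lysate and 1.12% in the IP (4.85% with the replicate block and 1.83% after loess). Of 19 mitosis genes, 18 fell in the lysate (median -2.14) and 4 in the IP (median -0.66, with 7 falls with the replicate block and 5 after loess). The 4 were the mitotic kinase genes PLK1, AURKA and AURKB and the cyclin gene CCNB2. PLK1 read 5.30, 4.93 and 5.35 against 6.74, 7.26 and 7.75 (-2.06 ± 0.43, adjusted p = 0.0175), and CCNB2 changed by -1.95 ± 0.45 (adjusted p = 0.031). No control array of PLK1 reached down to the miR-16 arrays. Without 1 array, between 0 and 3 of the 19 were called, with 0 without control replicate 3. Of 26 DNA replication genes, 25 fell in the lysate and 0 in the IP (median -0.46, with 6 falls with the block and 4 after loess). The closest to the threshold was GINS1, a helicase cofactor, at -1.10 ± 0.28 (adjusted p = 0.0505). Of 18 genes of the step from G1 to S, 7 fell in the lysate (median -0.39) and 1, E2F3, in the IP (median -0.43, with 4 falls with the block and 3 after loess).

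The difference between fractions was above 0 for all 19 mitosis genes and was called for 9. These 9 passed the filter on low values with control IP means of 2.52 to 4.49, below the median of 4.64 over all genes, so their place in the test and the sign of the difference rest on the lysate. TOP2A, the topoisomerase that untangles chromosomes, read 2.52, 2.48 and 2.34 with miR-16 and 2.61, 2.47 and 2.48 with the control in the IP, near the bottom of the scale and overlapping. In the lysate it read 7.34, 6.73 and 7.39 against 9.19, 9.73 and 9.67. The difference of the changes was 2.30 ± 0.40 (adjusted p = 0.000431). BUB1B, a spindle checkpoint kinase, gave 2.13 ± 0.37 with IP means of 2.67 and 2.69.

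Over all genes, the difference between fractions was called for 59 genes above 0 and 116 below (0.534% and 1.05% of genes, 1.58% together). Of the 59, 55 had fallen in the lysate and 3 had risen in the IP, and their median control IP level was 3.42 beside 4.64 for all genes. Of the 116, 70 had risen in the lysate and 38 had fallen in the IP. CCN2, the connective tissue growth factor, shows the commoner pattern: 5.98 to 6.20 against 5.55, 5.59 and 5.41 in the IP, which was not called (0.54, adjusted p = 0.165), with a lysate rise of 3.03 ± 0.30. The transcription factor gene TFAP2C likewise rose by 3.17 ± 0.22 in the lysate with an IP change of 0.74 (adjusted p = 0.266). The cadherin genes CDH10 and CDH7 gave the reverse, with lysate falls of 2.87 and 2.47 and IP means between 2.98 and 3.42. CDH10 was also lower in the lysate with every other molecule, by changes of -2.02 (miR-320) to -2.81 (miR-15b*) against the control. For CDH7 these changes ran from -0.30 (miR-320) to -2.46 (miR-195). Whether the CDH10 level belongs to the control lysate was not tested. The count was 74 without miR-16 IP replicate 2, 278 without miR-16 IP replicate 3, between 83 and 109 without miR-16 IP replicate 1, control IP replicate 1 or 3 or control lysate replicate 2 or 3, and was 404 with no filter on low values. With the lowest 60% of genes left out, 10 differences above 0 and 86 below were called.

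Of 28 known targets of the miR-16 family tested, 0 were called higher in the IP, beside 0.136% of all genes. At so low a share over all genes, 0 rises in 28 do not set these targets apart. Falls were called for 2 (7.14%, beside 1.12% of all genes). Below 0 were 20, beside 58.3% of all genes, and the median was -0.34. The 2 that fell were HMGA1, a chromatin architectural protein, and the S-phase transcription factor gene E2F3. HMGA1 read 7.18, 7.10 and 7.29 against 8.21, 8.44 and 8.48 (-1.19 ± 0.27, adjusted p = 0.031), but -0.63 after loess (adjusted p = 0.187). It lost the call without any 1 of the 6 arrays, and E2F3 (-0.93 ± 0.22, adjusted p = 0.0366) lost it without any but control replicate 2. E2F3 sits low on the IP scale, at 2.81, 2.66 and 2.84 against 3.84, 3.49 and 3.79. Its lysate groups overlapped, at 8.26, 7.96 and 8.42 against 8.13, 8.41 and 8.38.

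In the lysate 9 of these 28 fell and 3 rose, beside 7.45% and 9.56% of all genes. PHF19, a Polycomb component, changed by -2.39 ± 0.22 in the lysate and by -1.47 ± 0.54 in the IP (adjusted p = 0.239, and 0.0388 with the block). WEE1, the kinase that restrains entry to mitosis, changed by -0.99 ± 0.14 and -0.85 ± 0.35 (adjusted p = 0.302 in the IP). The antiapoptotic gene BCL2 and the cyclin gene CCND1 gave IP changes of 0.21 ± 0.19 and 0.25 ± 0.29 (adjusted p = 0.669 and 0.756). The groups of both overlapped. The 3 lysate rises were JUN, SMAD7 and MAP2K1, with IP changes of 0.01, -0.05 and 0.03. Of 19 known miR-103/107 targets GRN alone was called in the IP (5.26%, beside 1.26% of all genes). Both target lists name genes from background knowledge but were chosen with earlier results of these data known, so their shares are not independent of the data. Whether a message here holds a seed site was not analysed.

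Of 15 Argonaute and processing genes, 0 were called in the IP, beside 1.26% of all genes, and 14 lay below 0 (median -0.33). AGO2, the slicing Argonaute, read 4.13 ± 0.42 with miR-16 and 4.80 ± 0.37 with the control (SD, n = 3). Of 26 deadenylation and decapping genes, 3 fell (11.5%, beside 1.12% of all genes) and 24 lay below 0, with a median of -0.40: PABPC1, the cytoplasmic poly(A)-binding protein, and the decapping activators PATL1 and DCP1B. PABPC1 read 6.96, 5.72 and 6.91 against 9.23, 8.24 and 8.75 (-2.21 ± 0.43, adjusted p = 0.00921). It fell by 0.65 in the lysate (adjusted p = 0.0387, and 0.204 without miR-16 lysate replicate 2). PATL1 and DCP1B changed by -1.62 and -1.03 (adjusted p = 0.0312 and 0.0473). All 3 lost the call without control replicate 1, control replicate 3 or miR-16 replicate 2, among others for PATL1 and DCP1B.

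Of 16 immediate-early genes and AU-rich decay factors, 2 fell in the IP (12.5%, beside 1.12% of all genes) and 4 with the replicate block (beside 4.85%). JUNB, an AP-1 subunit, read 7.10, 6.94 and 7.87 against 9.10, 8.99 and 9.34 (-1.84 ± 0.41, adjusted p = 0.0265). ZFP36L1, which binds AU-rich tails and promotes their decay, read 7.18, 6.57 and 7.18 against 9.08, 8.43 and 8.88 (-1.82 ± 0.33, adjusted p = 0.00666). Their lysate messages did not follow, at 0.01 and -0.20. The difference between fractions passed for both (-1.84 and -1.61) and was lost with 1 array left out in 8 of 12 fits for JUNB and in 1 for ZFP36L1 (without miR-16 IP replicate 2, adjusted p = 0.061). ZFP36L1 lost its IP call without control replicate 3 or miR-16 replicate 2, and JUNB without any 1 array but miR-16 replicate 3. JUNB stood higher still with mut1, 2.04 above the control.

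Of 11 inflammatory genes, IL6 rose and TNFAIP3, an inhibitor of NF-κB signalling, fell (-1.18 ± 0.25, adjusted p = 0.0186, lost without miR-16 replicate 1 or 2 or control replicate 1 or 3). Of all genes tested, 0.136% rose and 1.12% fell. PTGS2, the inducible cyclooxygenase, was at 0.90 ± 0.23 (adjusted p = 0.0565, and 0.0153 with the block) beside 2.00 ± 0.28 in the lysate. Of 22 matrix genes, 3 rose (PCOLCE, THBS1 and CCN1, 13.6%, beside 0.136% of all genes) and 0 fell, with a median of 0.14. This list, like the others, was chosen with earlier results of these data known, so its share of rises is not independent support. After loess 4 rose, beside 0.498% of all genes, with a median of 0.30. The collagen genes COL4A1 and COL4A2 rose by 1.14 and 1.04 in the lysate, with IP changes of 0.41 and 0.19 that were not called. None of 18 interferon response genes and none of 16 p53 targets was called in the IP, beside 1.26% of all genes.

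Of 58 cytosolic ribosomal protein genes 2 fell, RPLP1 and RPS16 (3.45%, beside 1.12% of all genes), and 14 fell with the replicate block (beside 4.85% of all genes). The median was -0.67 as deposited and -0.24 after loess, where RPLP1 went from -1.38 to -0.48 (adjusted p = 0.541) and RPS16 from -0.79 to -0.29 (adjusted p = 0.695). These are among the most abundant messages, with a median control IP level of 7.59. The small nucleolar and Cajal body RNA genes went the other way, with 77 of 85 above 0 and a median of 0.50, or 0.68 after loess. Of these, SNORD12C alone was called (1.18%, beside 0.136% of all genes called higher). With the block 7 were called higher and after loess 6, beside 0.452% and 0.498% of all genes. SCARNA1, a guide RNA of Cajal bodies, read 7.40, 8.25 and 7.55 against 6.44, 6.09 and 5.30, a change of 1.79 ± 0.60 (adjusted p = 0.182, and 0.00181 with the block). Its groups do not overlap, yet its spread over all IP arrays is wide. Of 38 microRNA genes tested 0 were called, beside 1.26% of all genes.

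**Figure D5:**
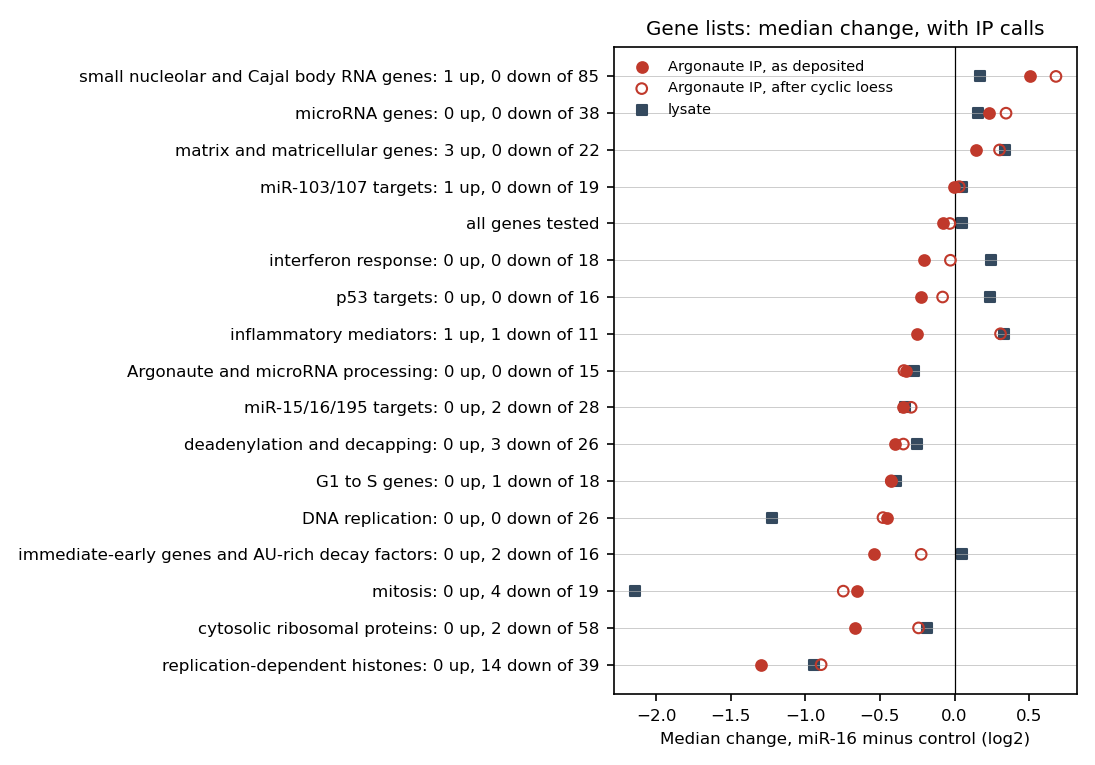
Median log2 change with miR-16 over the tested members of each gene list, for the IP as deposited (filled circles), the IP after cyclic loess (open circles) and the lysate (squares), with the number called up and down in the IP beside each name. Histones have the lowest IP median, -1.30, and 14 falls of 39, and mitosis genes the lowest lysate median, -2.14.

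The next contrast set miR-16 against miR-195, which shares its seed. No gene was called (0 of 11050, 0%, limma, with 125 genes at an unadjusted p under 0.05), and after cyclic loess 1 gene was, PCOLCE. The 95% interval of the difference lay within 1 of 0 for 80.3% of genes and for 85 of the 139 genes that miR-16 had moved against the control. Larger differences at the remaining genes were therefore within the intervals. PCOLCE had the largest difference among the 139, reading 11.80 ± 0.46 with miR-16 and 10.67 ± 0.71 with miR-195 (1.14, 95% interval 0.37 to 1.91, and 1.25 with an adjusted p of 0.0272 after loess). GRN differed by 0.57 (-0.42 to 1.55) and TAF12 by 0.04 (-0.40 to 0.47).

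Against the mean of miR-103 and miR-107, whose seed is offset by 1 base, 2 genes were higher with miR-16 and 11 lower (0.0181% and 0.0995% of genes, 0.118% together, and 18 and 27 genes with the replicate block). PCOLCE was again higher, by 2.57 ± 0.32 (adjusted p = 0.000121), since it averaged 9.30 with miR-103 and 9.17 with miR-107, the level of the control RNA. The metallothionein gene MT2A was higher by 1.38 ± 0.24 (adjusted p = 0.011), with a change against the control RNA of -0.34 (adjusted p = 0.633). The call of MT2A was lost without 2 of the arrays, miR-16 replicate 2 giving the highest adjusted p (0.181). The count was 8 without miR-16 replicate 1 and 6 without miR-16 replicate 2. Loess gave 15 higher and 34 lower.

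The largest of the 11 was IER3IP1, a small protein of the endoplasmic reticulum. It read 5.33, 4.67 and 5.36 with miR-16, averaged 9.73 ± 0.38 with miR-103 and 9.28 ± 0.71 with miR-107, and lay between 5.09 and 6.61 with the control (-4.38 ± 0.33, adjusted p = 5.91e-08). The nucleoside transporter gene SLC29A3 (-2.66), GOT2, the mitochondrial aspartate aminotransferase (-2.10), and BOLA3, an iron-sulphur cluster factor (-1.86), were lower likewise. Each of these 4 held without any 1 of the 9 arrays, and against the control RNA their miR-16 changes were -0.80, -0.84, -0.51 and -0.17, which were not called (adjusted p = 0.395, 0.336, 0.496 and 0.796). GUCD1, LDOC1, NINJ1 and RSU1 were lower by 2.27, 2.26, 1.76 and 1.72, each with a call lost without at least 1 array. GRN was lower with miR-16 than with miR-103 (11.85 ± 0.55) and miR-107 (11.58 ± 0.29), by -1.61 ± 0.41, which was not called (adjusted p = 0.21, and 0.0349 with the block).

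Against the mean of miR-320 and miR-15b*, which use none of the negative control arrays, 50 genes were higher with miR-16 and 173 lower (0.452% and 1.57% of genes, 2.02% together). Only 77 of these 223 genes had miR-16 arrays that did not overlap the miR-320 and miR-15b* arrays, beside 3.73% of all genes tested. The array of miR-15b* replicate 1 stood apart, with a standard deviation of 1.35 and a mean correlation of 0.803 with its group. Without it the calls were 56 higher and 461 lower. With only the 9 arrays compared in the fit there were 2 calls, LSM2 and CPSF6, the latter a 3′ end processing factor named after its value was seen, and with the replicate block 120 and 457. Without miR-16 replicate 2, miR-16 replicate 1 or miR-320 replicate 3 the count was 45, 60 and 127. This contrast and those with miR-195 and with miR-103 and miR-107 share the miR-16 arrays.

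GRN and PCOLCE were the largest rises here too, at 3.40 ± 0.41 (adjusted p = 6.74e-05) and 3.06 ± 0.32 (adjusted p = 9.15e-06), and MMD followed at 2.74 ± 0.43 (adjusted p = 0.0014). Without miR-15b* replicate 1 they were 3.05, 2.81 and 2.30, all called. PLAU (1.77, adjusted p = 0.0303) was higher as well, and IL6 was not called (1.18, adjusted p = 0.339), with 9.03 ± 1.64 in the miR-320 IP. Of the 85 small nucleolar and Cajal body RNA genes, 23 were higher (27.1%, beside 0.452% of all genes, and 24 without miR-15b* replicate 1). SCARNA1 led them, at 2.34 ± 0.52 (adjusted p = 0.0174). SNORA23 and SNORD116-6 were higher by 2.16 and 2.14. SNORD116-6 spread widely within miR-15b*, with an SD of 2.35, and differed by 1.47 without replicate 1 of that group.

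Of the falls in that contrast the largest was LSM2, a subunit of the rings that bind U6 RNA or deadenylated messages. It read 6.29, 5.25 and 6.59 with miR-16, 11.05 ± 0.05 with miR-320, 9.70 ± 1.00 with miR-15b* and 7.46, 7.11 and 7.55 with the control RNA (-4.33 ± 0.33, adjusted p = 5.74e-08). Against the control RNA the change was -1.33 (adjusted p = 0.101), with groups that did not overlap. CXCL2 and CEP85 averaged 8.50 and 6.18 with miR-320, and 5.85 and 4.38 with miR-15b*. PLK1 (-1.91, adjusted p = 0.00708) and the phosphatase gene CDC25C, which triggers mitosis (-1.87, adjusted p = 0.0134), were lower here and lower against the control RNA, where CDC25C fell by 2.44 (adjusted p = 0.00812, lost without control replicate 3 or miR-16 replicate 2). PLK1 averaged 7.76 with miR-320 and 6.44 with miR-15b*, above the 4.93 to 5.35 of the miR-16 arrays.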

How the data were processed

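The authors deposited RMA values made in Expression Console 1.1 (Affymetrix), per the submitters' processing notes, and these are read here as log2 values, since the base is not stated. The platform annotation gives a single symbol for 19460 of 33297 probe sets, more than 1 for 1754 and no symbol for 12083. Where 1 gene had more than 1 probe set (769 genes), the probe set of highest mean stood for it, giving 18417 genes. The lowest 40% by mean over all 54 arrays were left out, and 11050 were tested.

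Group means were fitted in limma 3.58.1 (R 4.3.3) with empirical Bayes and Benjamini-Hochberg adjustment, a gene being called at an adjusted p under 0.05. All 27 IP arrays shared 1 estimate of the spread, as did the 27 lysate arrays, and all 54 entered the difference between fractions. A value ± error is a log2 difference ± SE, or a group mean ± SD (n = 3). The fit was tested on simulated data for miR-16 IP against control IP over 11050 genes, where 7.35%, 45.5% and 86.4% of genes changed by 0.5, 1 and 2 were recovered. The number of arrays limits the precision.

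Deviations from the group means of same-numbered miR-16 and control IPs correlated at 0.288 to 0.546 in all 3 pairs (-0.373 to 0.119 between other numbers), so the numbers were taken to pair the samples. Named genes are the 12 largest rises and falls in the IP and the 8 largest in the other comparisons, among called genes with groups that did not overlap, the members of the lists, and the 3 called rises beyond these. The members and lists were chosen with earlier results of these data known. Alternatives were the filter, cyclic loess, quantile normalization, eBayes settings, array weights, the arrays in the fit, the replicate block, the mean of probe sets, the mean of 3 controls, and each array left out.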

Additional observations from a re-analysis of the deposited data

Results flagged for a closer look

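The change with miR-16 differed between the Argonaute IP and the lysate for 26 named genes by the test of the difference itself (limma, adjusted p under 0.05, all 54 arrays in the fit), and each value below is the change in the IP minus the change in the lysate, in log2 units. The lowest were MRGBP (-4.21), SLC41A3 (-3.21), NPTN (-3.03), KPNA2 (-3.00) and TAF12 (-2.99). UBE2V1 (-2.53), CCN2 (-2.49), TFAP2C (-2.43), SLC39A9 (-2.39) and NRM (-2.20) came next. CCN1 (-1.98), JUNB (-1.84), ZFP36L1 (-1.61), ADAMTS14 (-1.51), PTPRE (-1.48), TMEM158 (-1.27) and DCP1B (-1.17) were nearer to 0. Above 0 stood PCOLCE (2.57), CDH10 (2.54), TOP2A (2.30), PRR11 (2.26) and GRN (2.22), then BUB1B (2.13), CDH7 (2.11), ANLN (2.08) and ITSN1 (1.16). With each of the 12 arrays left out in turn, 11 of the 26 lost this call in at least 1 fit: ADAMTS14 and ITSN1 in 9, JUNB in 8, SLC39A9 in 7, DCP1B in 6, NRM and TMEM158 in 5, CCN1 and ANLN in 4, and GRN and ZFP36L1 in 1. CDH10, TOP2A, BUB1B, CDH7 and ANLN averaged 2.45 to 3.42 in both IP groups and passed the filter on low values through the lysate, so their differences restate the lysate fall. The lysate fall of CDH10 was shared by every other molecule.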

How the results depend on the processing

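Counts of called genes that moved by over 1.5 times were as follows. For miR-16 IP against control IP (139) there were 257 after cyclic loess, 640 with array weights, 216 against the mean of 3 controls and 254 after loess on only the compared arrays. These held 123, 139, 83 and 105 of the 139. The fit on only the compared arrays, without loess, gave a like count, 132, but held 84 of the 139. For the lysate (1879) there were 616 with only the compared arrays and 5361 with array weights. For the difference between fractions (175) there were 404 with no filter, 96 with the lowest 60% left out, 102 with only the compared arrays and 1673 with array weights. Against miR-195 (0) loess gave 1. Against miR-103 and miR-107 (13) there were 49 after loess, 67 after quantile normalization, 21 with only the compared arrays and 53 with array weights. Against miR-320 and miR-15b* (223) the same settings gave 530, 417, 2 and 711. Quantile normalization put 37.3% of the calls against miR-103 and miR-107 above 0, beside 15.4% as deposited, and 34.1% of those against miR-320 and miR-15b*, beside 22.4%. With the lowest 60% left out, 10 of 96 differences between fractions were above 0, and with no filter 228 of 404.

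The replicate block, with the pairing of the numbers, gave 586 calls against the control, 778 together with loess, 45 against miR-103 and miR-107 and 577 against miR-320 and miR-15b*. It gave 2639 for the lysate and 0 against miR-195. For the difference between fractions it was fitted on IP minus lysate of same-numbered replicates. That gave 170 calls, of which 132 were among the 175 of the main fit. Leaving out 1 array gave 19 to 124 calls against the control, 1169 to 2453 in the lysate, 74 to 278 for the difference, 0 to 0 against miR-195, 6 to 16 against miR-103 and miR-107 and 45 to 517 against miR-320 and miR-15b*. Of the values of single genes, 2 changed sign where 1 of the 2 settings made the call: ITGA2 in the IP, called at 1.15, was -0.019 against the mean of 3 controls, and APP in the lysate, not called at -0.0059, was called at 0.19 with array weights. The cause was not tested. With 3 arrays a group, the simulation recovered 7.35% of changes of 0.5, so small changes were mostly missed in that setting. Its noise was independent between arrays, unlike the paired replicates here, so the rate for these arrays may differ.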

Other observations

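Of the 18 IP falls that kept their call without any 1 of the 6 arrays, 10 lay outside the rule for named genes or the lists and are named after their values were seen. The histone variant gene H2AZ1, which unlike the replication-dependent histones has a polyadenylated message, changed by -2.54 ± 0.42 (log2 ± SE, highest adjusted p 0.0346 with limma over the 6 fits). The others included the exosome subunit gene EXOSC1 (-1.94), the proteasome subunit gene PSMA2 (-1.68), the mitochondrial ribosomal protein gene MRPL32 (-1.64), RPL26L1 (-1.43) and the initiation factor gene EIF1 (-1.22). GPAT3, an enzyme of glycerolipid synthesis, changed by -1.98 and the aldo-keto reductase gene AKR1C1 by -1.57. The remaining members were the U1-related RNA gene RNVU1-15 (-1.56) and the zinc finger gene ZNF208 (-1.34).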
